A study of Mus musculus with 4 samples.

Results

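The heat shock protein genes followed here are 9 mouse genes, read across 4 single-cell RNA libraries of mammary tumours. They are Hspa1a, Hspa1b, Dnajb1, Hsph1, Hsp90aa1, Hsp90ab1, Hspa8, Hspe1 and Hspd1. They were picked by symbol, and all 9 were found once each among the 31053 mouse features of the count tables. They were picked with their levels in these libraries already known, as genes whose reading could move with a library rather than with the host genotype, so their levels by library and by host are given as a description.

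The tumours grew from H605, a single HER2-positive mouse mammary tumour line, which was placed in the mammary pad; the recipients were FVB/NJ mice aged 6 to 8 weeks, and tumours were collected on day 14. The hosts were wild type (WT, 2 libraries) or IL1α-/- (2 libraries), so the missing gene, Il1a, encodes a cytokine that the host cells lacked, while nothing in the labels says so of the injected line. The tumours came as 2 pairs collected on separate days, and the replicate number was taken to mark the pair, which the labels do not state. By the labels' protocol all tumours went through enzymatic digestion at 37 °C for 45 minutes, red cell lysis and enrichment for live cells. Values of the 4 libraries are given below in the order WT replicate 1, WT replicate 2, IL1α-/- replicate 1 and IL1α-/- replicate 2.

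Heat shock proteins are chaperones, which bind unfolded or newly made proteins and help them fold. The HSP70 and HSP90 machines work in the cytosol with co-chaperones, and HSP60 with HSP10 forms the folding chamber of mitochondria. When proteins unfold, the transcription factor HSF1 binds repeats of a short element in the promoters of inducible members and raises them within minutes, while constitutive members are made at all times. Warm enzymatic dissociation of tissue is known to raise several of these genes, as do heat, hypoxia and handling.

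Hspa1a and Hspa1b, the inducible HSP70 genes, lie 9952 bases apart on the minus strand of chromosome 17, at chr17:34969190-34972156 and chr17:34956436-34959238 (GRCm38, GENCODE vM21). Their promoters are shown because the levels of this pair moved together and because their copies are close enough to ask whether reads could be exchanged. The 250 bases before each RefSeq start (GRCm38.p6, chr17:34972157-34972406 and chr17:34959239-34959488, both minus strand) are printed 5′ to 3′, and capitals mark GAANNTTC, an inverted pair of the units that HSF1 binds.
Hspa1a: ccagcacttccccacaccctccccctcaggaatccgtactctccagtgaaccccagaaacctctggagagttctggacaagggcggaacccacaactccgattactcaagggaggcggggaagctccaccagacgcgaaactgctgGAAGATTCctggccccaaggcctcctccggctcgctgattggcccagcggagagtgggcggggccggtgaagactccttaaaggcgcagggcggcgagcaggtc
Hspa1b: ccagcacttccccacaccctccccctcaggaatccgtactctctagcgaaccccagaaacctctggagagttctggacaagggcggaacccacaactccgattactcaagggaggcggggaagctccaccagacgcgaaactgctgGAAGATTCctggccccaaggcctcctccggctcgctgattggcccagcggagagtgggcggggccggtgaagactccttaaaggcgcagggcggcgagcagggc
Of the 250 positions 247 are equal, and the 3 that differ are at -207, -204 and -2 from the start. The match begins 104 bases before the start in both genes. The motifs GAANNTTC or TTCNNGAA, searched on both strands, stood in 12.8% of 32851 promoter windows of this length. The transcripts of this pair share 58.8% of the 50-base words of Hspa1a, yet none in the last 500 bases, where the longest shared run is 10 bases. The libraries read the 3′ end, so most reads could be told apart between the copies, though reads from the shared middle could not.

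Windows were at hand for 6 of the 9 genes, and 5 of them held at least 1 match. The clearest array stood in the promoter shared by Hspe1 and Hspd1, which are transcribed away from each other on chromosome 1 and overlap at their ends. It is shown with the Hsph1 element because both are short and lie close to the start.
Hspe1, chr1:55088053-55088082, plus strand: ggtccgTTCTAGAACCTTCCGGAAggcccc
Hsph1, chr5:149636351-149636380, minus strand: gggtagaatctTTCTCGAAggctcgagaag
Capitals mark the alternating units, which begin 89 bases before the start of Hspe1 and 33 bases before that of Hsph1. An array of 3 alternating GAA and TTC units, parted by NN, stood in 0.466% of windows on either strand. The Dnajb1 windows held no match, which says only that these letters are not in them. A match is a description of the sequence and says nothing of binding in these cells.

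The 4 libraries held 23462739, 28999819, 6704859 and 15297495 mouse UMIs (unique molecular identifiers, each counting 1 captured transcript), and 4001, 4006, 3213 and 3335 barcodes passed as cells. The median cell held 3143, 4209.5, 1361 and 2902 UMIs, so IL1α-/- replicate 1 is the shallowest library. Between 0 and 6 cell barcodes were shared by any pair of libraries. In the phagocyte gate Il1a had 61 and 84 UMIs in the WT libraries and 1 and 0 in the IL1α-/- libraries, which matches the labels. Cells were gated by marker genes that include no heat shock gene. The T/NK-like gate (T and natural killer cells) held 2146, 2243, 1962 and 2217 cells, the mononuclear phagocyte-like gate 358, 617, 117 and 315, the fibroblast-like gate 358, 222, 293 and 259, and the plasmacytoid dendritic-like gate 173, 94, 81 and 81. The last of these also carried B and plasma cell markers, at 2078, 1906, 1263 and 1446 UMIs per 1000000 mouse UMIs of the gate (CPM) summed over 10 genes, and its name is uncertain. Tumour epithelial-like cells numbered 325, 206, 24 and 2, so the last library gave no tumour value.

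Hspa1a and Hspa1b were far higher in WT replicate 1 than in the other libraries, in T/NK-like, phagocyte-like, fibroblast-like and plasmacytoid dendritic-like cells. Tumour epithelial-like cells, with no value in the last library, differed less, with Hspa1b at 1.90 times the next library. In T/NK-like cells Hspa1a stood at 111, 15.8, 5.25 and 3.09 CPM. Hspa1b stood at 185, 25.6, 13.3 and 8.33 CPM in the same cells. The WT values did not overlap the IL1α-/- values, but the gap between the WT libraries was far wider than the gap between WT replicate 2 and the IL1α-/- libraries. Summed over both genes, WT replicate 1 was 7.14 times the next library (95% interval 6.47 to 7.90; exact intervals on UMIs, here and below, cover counting error only).

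In mononuclear phagocyte-like cells Hspa1a stood at 234, 56.4, 44.2 and 44.1 CPM. Hspa1b was at 237, 52.2, 48.2 and 24.1 CPM there. WT replicate 1 stood apart again, at 4.34 times the next library (3.84 to 4.90) for the sum, while the 3 other libraries lay between 24.1 and 56.4 CPM for both genes. Fibroblast-like cells gave 162, 52.2, 57.3 and 30.3 CPM for Hspa1a and 179, 52.2, 51.7 and 20.5 CPM for Hspa1b. Here the WT and IL1α-/- values of Hspa1a overlapped, and the sum in WT replicate 1 was 3.12 times the next library (2.52 to 3.90), which was IL1α-/- replicate 1.

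The plasmacytoid dendritic-like gate held few UMIs of the pair outside WT replicate 1. It gave 176, 15.6, 9.67 and 0 CPM of Hspa1a, from 168, 10, 2 and 0 UMIs; a count of 0 allows up to 7.13 CPM in the last library. Hspa1b was at 283, 42.2, 9.67 and 2.38 CPM, from 270, 27, 2 and 1 UMIs. The sum in WT replicate 1 was 7.93 times the next library (5.66 to 11.4). Tumour epithelial-like cells were the least uneven of these gates, with 199, 92.4 and 44.0 CPM for the sum in the first 3 libraries and a ratio of 2.15 (1.91 to 2.44).

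**Figure D1:**
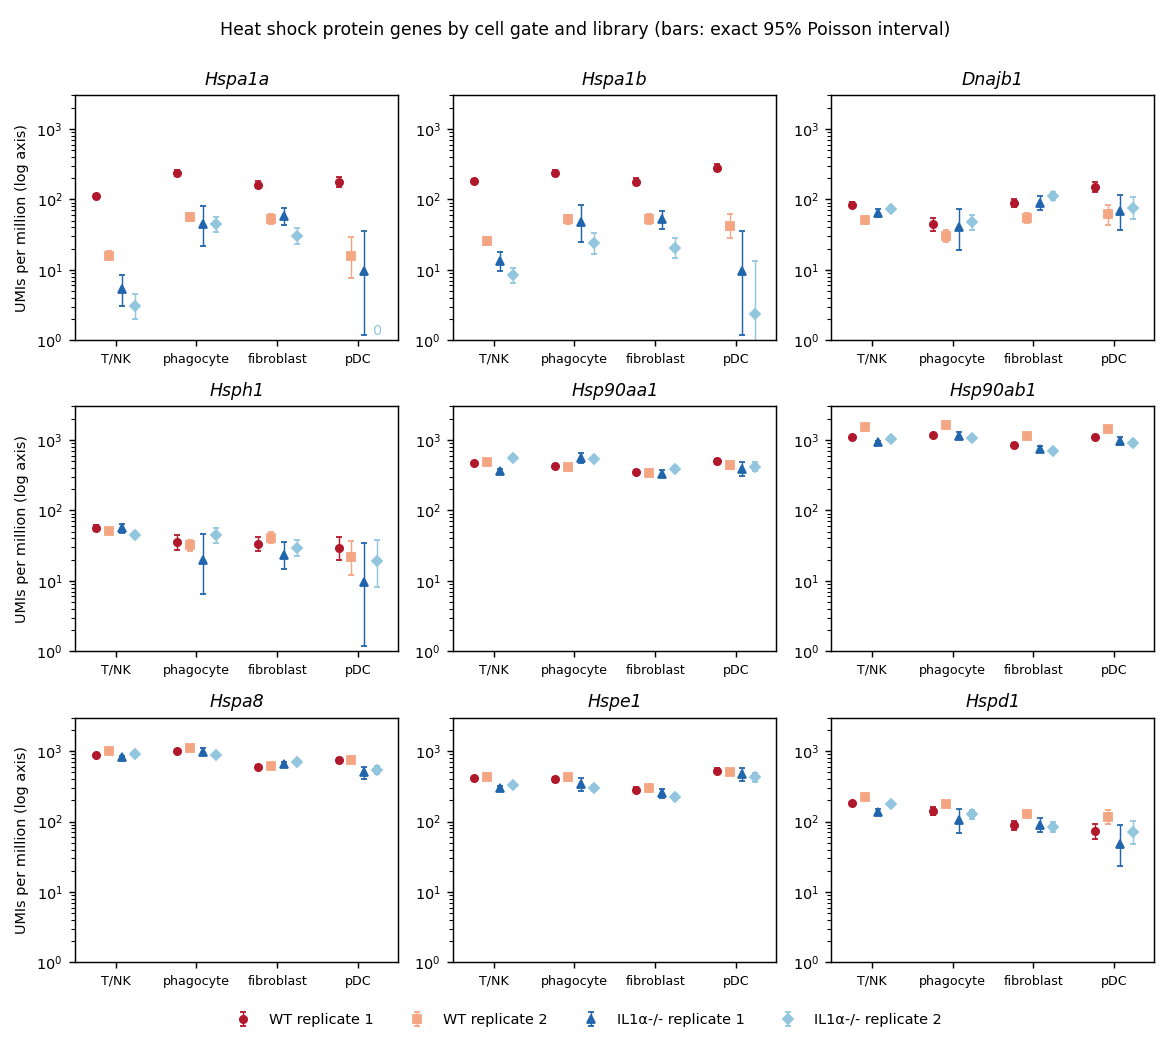
CPM of each of the 9 genes (log axis) in 4 gates, 1 point per library, with exact 95% Poisson intervals. Hspa1a and Hspa1b are highest in WT replicate 1 in each gate (111 and 185 in T/NK-like cells), while Hsp90ab1 is highest in WT replicate 2 in each gate; a gene with 0 UMIs is written as 0.

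Finer gates within these classes kept WT replicate 1 on top. Among T/NK-like cells the sum of Hspa1a and Hspa1b was 279, 36.0, 10.3 and 8.75 CPM in Cd8-positive cells. It was 409, 55.6, 19.4 and 19.7 CPM in Cd4-positive cells and 251, 33.4, 17.9 and 15.9 CPM in NK cells. Within the phagocytes it was 352, 74.8, 63.9 and 32.6 CPM in cells with C1q genes, which mark macrophages. Cells with Ly6c2, a monocyte gene, gave 679, 189, 40.2 and 21.4 CPM. Some of these values rest on few cells. In the IL1α-/- libraries 2 of 26 and 5 of 62 Ly6c2 cells had a UMI of the pair. In IL1α-/- replicate 1 it was 5 of 41 cells with C1q genes and 3 of 105 Cd4-positive cells. The ratio of WT replicate 1 to the next library was 7.76, 7.36, 7.53, 4.71 and 3.59 in these 5 gates, so the difference was present in lymphoid and myeloid cells alike.

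Within WT replicate 1 the order of the sum ran from the Ly6c2 gate (679 CPM, 557 to 819) and 25 conventional dendritic-like cells (520, 428 to 625) through mononuclear phagocyte-like (471, 440 to 504) and plasmacytoid dendritic-like cells (459, 417 to 504) to fibroblast-like (341, 316 to 366), T/NK-like (295, 283 to 307) and tumour epithelial-like cells (199, 186 to 212). The first 2 overlapped each other, and the dendritic and phagocyte-like gates overlapped one another, while the fibroblast-like, T/NK-like and tumour gates did not overlap their neighbours. The Ly6c2 cells are part of the phagocyte-like gate.

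The same library also held more of this RNA outside cells. Barcodes of 1 to 100 UMIs, which hold free RNA, gave 221, 84.0, 49.8 and 25.3 CPM of Hspa1a and Hspa1b together, the same order of libraries as in T/NK-like, phagocyte-like and plasmacytoid dendritic-like cells. T/NK-like cells held 1.34 times the free level in WT replicate 1 (1.21 to 1.49). In the other libraries they held 0.492, 0.373 and 0.451 times the free level, and each of these intervals lay below 1. The T/NK-like values in those 3 libraries thus lie under the free level. What part of their UMIs is free RNA was not estimated, so they are not read as expression. Phagocyte-like cells lay above free RNA in all 4 libraries, at 2.13, 1.29, 1.86 and 2.69 times, as did fibroblast-like cells at 1.54, 1.24, 2.19 and 2.01 times. Plasmacytoid dendritic-like cells stood at 2.08 times free RNA in WT replicate 1 and at 0.689, 0.389 and 0.0939 times in the others. Tumour epithelial-like cells were at 0.901, 1.10 and 0.885 times the free level, with intervals that included 1. Inside the T/NK-like gate the 10 tumour markers summed to 90.2, 72.2, 44.5 and 19.2 CPM, the same order of libraries as the pair. The 10 B and plasma cell markers summed to 151, 127, 55.9 and 49.6 CPM, and the plasmacytoid dendritic markers to 77.7 and 95.2 CPM in the WT libraries and 38.0 CPM or less in the others. Neutrophil markers stood at 35.6, 14.2, 9.89 and 19.0 CPM, and the phagocyte markers, at 150, 135, 182 and 146 CPM, were not highest in WT replicate 1. The part of free RNA and of other cells in the levels was not tested.

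**Figure D2:**
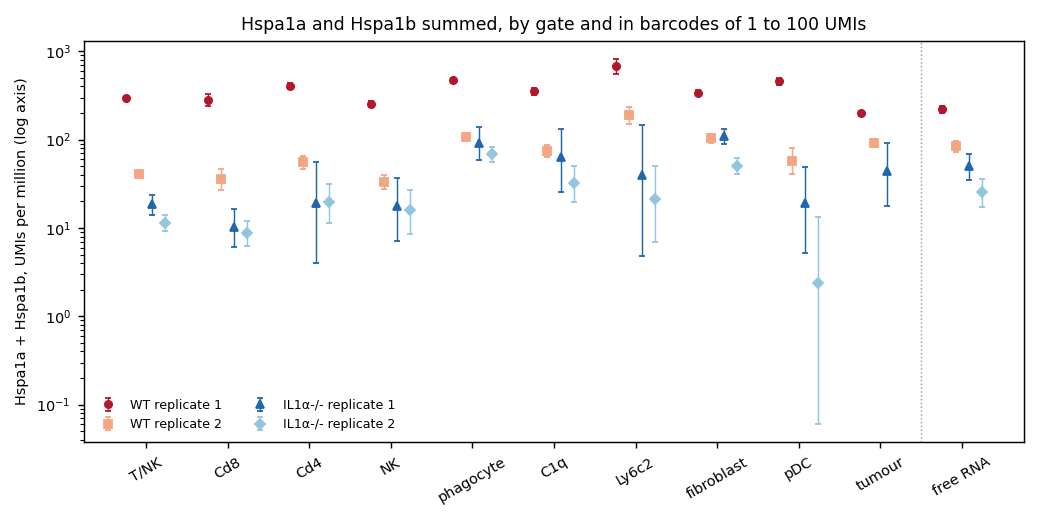
Hspa1a and Hspa1b summed, in CPM (log axis), by gate and, right of the dotted line, in barcodes of 1 to 100 UMIs; points are libraries and bars exact 95% Poisson intervals. WT replicate 1 is the top point in each column, including free RNA (221), and values from fewer than 20 cells or from 0 UMIs are not drawn.

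A UMI of the pair was detected in a minority of the cells of WT replicate 1. With each cell thinned to 1000 UMIs, 13.8% of T/NK-like cells (12.4 to 15.4, Clopper-Pearson) had a UMI of Hspa1a or Hspa1b in that library, against 3.76% (3.01 to 4.64), 1.40% (0.867 to 2.13) and 1.35% (0.904 to 1.93) in the others. Without thinning the shares were 22.7%, 10.7%, 2.29% and 3.61%. Thinning left out 35, 36, 460 and 64 cells that were too shallow. Phagocyte-like cells gave 19.0%, 7.42%, 4.0% and 6.04% after thinning. Fibroblast-like cells gave 22.4%, 10.8%, 6.18% and 4.07%, and plasmacytoid dendritic-like cells 19.0%, 7.61%, 1.27% and 1.27%. WT replicate 1 had the highest share in each of the 4 gates. Without thinning, the fibroblast-like shares of the WT libraries were 39.4% and 36.9%. A share depends on how many UMIs are drawn per cell, and it does not show how many cells carried the excess. No gate is known to lack these genes, so free RNA above is the only background.

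Cells with many copies were found mainly in that library. At 1000 UMIs per cell, 92 of 2111 T/NK-like cells of WT replicate 1 had 3 or more UMIs of the pair, and the highest had 16. The other libraries had 5 of 2207, 0 of 1502 and 1 of 2153 such cells. For the 0 of 1502, a count of 0 allows a share of up to 0.200%. Among phagocyte-like cells there were 19 of 327, 7 of 539, 1 of 100 and 0 of 298, and the last allows up to 1.01%.

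**Figure D3:**
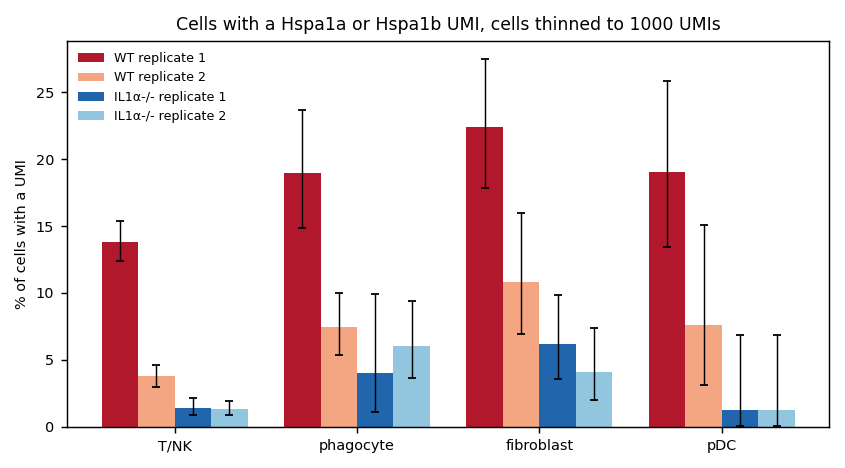
Percent of cells with at least 1 UMI of Hspa1a or Hspa1b after thinning each cell to 1000 UMIs, by gate; bars are libraries and error bars exact 95% binomial intervals. WT replicate 1 has the tallest bar in each gate, from 13.8% of T/NK-like to 22.4% of fibroblast-like cells.

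The T/NK-like cells that carried the pair in WT replicate 1 also held more of the co-chaperones, a comparison chosen after the values were seen. The 92 T/NK-like cells with 3 or more UMIs were set against the 1819 with 0, all at 1000 UMIs. Dnajb1, an HSP40 co-chaperone that hands clients to HSP70, was 3.07 times as high in the carriers (1.89 to 4.79). Hsph1, which exchanges the nucleotide of HSP70, was 3.04 times as high (1.60 to 5.37). Hspa8 was 2.13 times (1.78 to 2.52) and Hsp90aa1 1.79 times (1.38 to 2.30) the level of the other cells. For Hsp90ab1, Hspe1 and Hspd1 the ratios were 1.17, 1.10 and 0.869, with intervals that included 1. Dnajb1, Hsph1, Hspa8 and Hsp90aa1 were thus higher in the cells that held the pair. With 1 UMI enough to be a carrier, Hspe1 was at 1.33 (1.11 to 1.60) and Hspd1 at 1.26 (0.922 to 1.68) over 292 carriers. Depth and mitochondrial share were close, with medians of 2823.5 and 2942 UMIs before thinning and 3.34% and 3.27% mitochondrial UMIs.

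Among 583 genes with at least 20 UMIs in the carriers, Jun, a stress-responsive transcription factor, had the highest ratio in these carriers, at 4.85 (3.33 to 6.92). The limits of 20 UMIs here and 10 UMIs below were set on the carriers alone, so a gene high in these cells passed them more easily. The rank and the counts below lean to high ratios for that reason and are not read as a result. Of 12 immediate early genes with at least 10 UMIs in the carriers, 6 had an interval above 1, beside 7.82% of the 1445 genes with as many UMIs, among them Klf2 at 2.37 (1.69 to 3.26) and Dusp1 at 1.96 (1.54 to 2.46). Ier2 was the single gene below 1, at 0.585 (0.332 to 0.958). None of 9 other cytosolic chaperone genes with enough UMIs had an interval that excluded 1. With cells of at least 1 UMI as carriers, the Jun ratio was 4.11 (3.18 to 5.30), 2.43 (1.33 to 4.13), 7.69 (2.71 to 17.8) and 1.85 (0.221 to 6.92) in the 4 libraries. It was above 1 in 4 of 4, and the interval excluded 1 in 3. Hsph1 gave 2.67, 2.15, 2.35 and 3.62, with an interval above 1 in WT replicate 1 alone. The next 3 members did not keep 1 direction in all 4 libraries: Dnajb1 was at 2.27, 1.02, 0.758 and 2.54, Hspa8 at 1.49, 1.14, 1.30 and 0.743, and Hsp90aa1 at 1.59, 0.866, 1.83 and 0.906, and each interval outside WT replicate 1 included 1.

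The other gates of WT replicate 1 were mixed. In 62 phagocyte-like carriers Hsph1 was at 0.329 times the other cells (0.00774 to 2.19) and Hsp90aa1 at 0.847 (0.517 to 1.33), while Dnajb1 was at 3.66 (1.02 to 12.7), from 6 UMIs. The 7 other members summed to 2.92 UMIs per carrier and 2.96 per other cell there. They summed to 4.10 and 4.58 in tumour epithelial-like cells, where Hsp90aa1 was at 0.290 against 0.549. In 32 plasmacytoid dendritic-like carriers the sum was 4.66 against 2.67, with Dnajb1 at 14.4 times the other cells (5.12 to 50.1) Hsp90aa1 at 2.97 times (1.80 to 4.84), Hspa8 at 1.82 times (1.23 to 2.64) and Hspd1 at 4.25 times (1.27 to 14.2). In fibroblast-like carriers the interval of each of the 7 included 1. In phagocyte-like carriers of WT replicate 1 the Jun ratio was 1.82 (1.10 to 2.93), while Fos was 0.596 (0.431 to 0.808) and Junb 0.545 (0.419 to 0.700). Cells of a library are not replicates, and these intervals cover counting only.

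When whole gates were summed, the co-chaperones shared the library pattern of the HSP70 pair only in part. WT replicate 1 was the highest library for Dnajb1 and Hsph1 in T/NK-like and plasmacytoid dendritic-like cells, but not in phagocyte-like or fibroblast-like cells. Dnajb1 was at 84.4, 51.5, 64.6 and 73.9 CPM in T/NK-like cells, with WT replicate 1 at 1.14 times the next library (1.02 to 1.28). It was at 44.2, 29.9, 40.2 and 47.5 CPM in phagocyte-like and 88.6, 54.7, 89.9 and 113 CPM in fibroblast-like cells, so WT replicate 2 was the lowest library in all 3. In plasmacytoid dendritic-like cells it was 149, 61.0, 67.7 and 76.1 CPM, and WT replicate 1 was 1.96 times the next library (1.33 to 2.97). Hsph1 was at 56.6, 50.7, 55.6 and 44.4 CPM in T/NK-like cells. It was at 35.4, 31.8, 20.1 and 44.1 CPM in phagocyte-like and 33.5, 41.3, 23.6 and 29.3 CPM in fibroblast-like cells. The host groups overlapped for Dnajb1 in T/NK-like, phagocyte-like and plasmacytoid dendritic-like cells, while in fibroblast-like cells both IL1α-/- libraries lay above both WT libraries, by a narrow margin (88.6 against 89.9 CPM). For Hsph1 they overlapped in T/NK-like and phagocyte-like cells, and in fibroblast-like cells the WT libraries were higher. In plasmacytoid dendritic-like cells the WT libraries were also higher for Hsph1, at 29.3, 21.9, 9.67 and 19.0 CPM in library order. There WT replicate 1 was 1.34 times the next library (0.682 to 2.75).

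Hsp90aa1, the inducible cytosolic HSP90, was at 472, 493, 368 and 562 CPM in T/NK-like cells. Hsp90ab1, the constitutive form, was at 1112, 1545, 923 and 1046 CPM. Hspa8, the constitutive HSP70, was at 875, 999, 813 and 913 CPM. WT replicate 2, not WT replicate 1, was the highest library for Hsp90ab1 in all 4 tested gates, with WT replicate 1 at 0.720, 0.724, 0.764 and 0.759 times its level in T/NK-like, phagocyte-like, fibroblast-like and plasmacytoid dendritic-like cells. Tumour epithelial-like cells held the most Hsp90ab1, at 2356, 3077 and 1655 CPM in the first 3 libraries, again with WT replicate 2 on top. In phagocyte-like cells Hsp90aa1 was at 424, 415, 559 and 541 CPM, the one member with both IL1α-/- libraries above both WT libraries there.

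The mitochondrial pair was at 420, 427, 298 and 331 CPM for Hspe1 (HSP10) and 183, 224, 138 and 175 CPM for Hspd1 (HSP60) in T/NK-like cells. In phagocyte-like cells Hspe1 was at 398, 432, 342 and 302 CPM and Hspd1 at 142, 175, 104 and 127 CPM. Both genes were higher in both WT libraries than in both IL1α-/- libraries in these gates, by narrow margins for Hspd1. All 9 genes together summed to 3498, 3831, 2680 and 3157 CPM in T/NK-like cells, of which the HSP70 pair was 295, 41.3, 18.5 and 11.4 CPM. In T/NK-like cells WT replicate 1 was the highest library for 4 of the 9 genes and WT replicate 2 for another 4, where each was highest for 26.0% and 25.8% of 11059 genes tested.

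Over 23 sums of a gate in a library, each centred on its gate, Hspa1a and Hspa1b had a Pearson r of 0.94, Hspa1a and Dnajb1 of 0.32, Hspa1a and Hspe1 of 0.63, and Hsp90ab1 and Hspa8 of 0.70. Dnajb1 and Hsp90ab1 had an r of -0.60. The sums share 4 libraries and their depth, and the values describe only these sums. Of 3062 genes, those most like the mean of the 9 members by this measure were Rps25 (0.854), Rps15 (0.846), Tprgl (0.817), Cst3 (0.814), Tecr (0.801), Rps12 (0.795), Eef1a1 (0.789), Csn3 (0.783), Rps9 (0.781) and Rps4x (0.780), 5 of them genes of ribosomal proteins.

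The comparison of IL1α-/- with WT hosts asks whether the genes followed the host genotype. Differences are log2 fold changes from edgeR's quasi-likelihood test on UMIs summed per gate and library, with 2 libraries a group, and negative values are lower in IL1α-/- hosts. In T/NK-like cells the difference was -3.97 (SE 0.94) for Hspa1a and -3.29 (SE 0.86) for Hspa1b. The other 7 genes ranged from -0.40 for Hsp90ab1 to 0.08 for Dnajb1. In this fit 0 of 9 members passed an adjusted p of 0.05, where 4.9% of 11059 genes did. That count turned with the settings: of 13 others, Hspa1a passed in 10 and Hspa1b in 8, in each with the same direction. Both passed in the stricter gate, in thinned cells, with the replicate block and without either WT library, and Hspa1a alone passed with DESeq2. In phagocyte-like cells the differences were -1.64 (SE 0.60) for Hspa1a and -2.17 (SE 0.69) for Hspa1b, and 0 of 9 passed, beside 0.254% of 8652 genes; both passed with no filter on low counts and without WT replicate 2, and Hspa1b with the replicate block. Fibroblast-like cells gave -1.31 (SE 0.60) and -1.73 (SE 0.70), and again 0 of 9 passed, beside 0% of 9982 genes (edgeR; 484 genes at an unadjusted p under 0.05, and 9 genes by DESeq2); Hspa1b passed with no filter on low counts and with the replicate block. In plasmacytoid dendritic-like cells Hspa1a did not pass the filter on low counts and 1 of 8 tested members passed, beside 1.96% of 5910 genes. That gene was Hspa1b, with 297 UMIs in WT and 3 in IL1α-/- hosts. It met the filter on low counts only through the WT libraries, where it was high, so its passing is not read as support. The ratio of pooled UMIs was 39.0 (13.2 to 190), an interval that leaves out the gap between the WT libraries. Of the 297 UMIs, 270 came from WT replicate 1, and the gene did not pass with DESeq2 (-4.88, adjusted p = 0.0962). Its levels in the other libraries, 42.2, 9.67 and 2.38 CPM, lay below those of free RNA, 45.2, 21.5 and 16.3 CPM, within the counting interval except in the last.

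Leaving out WT replicate 1 made these differences smaller, which had to follow, since it was the highest library for both genes in each gate. Without it the Hspa1a difference in T/NK-like cells fell in size to -1.99 (SE 0.37) and that of Hspa1b to -1.27 (SE 0.32). Both then passed, beside 4.18% of genes; the WT side then held a single library that was assumed to vary like the others. The T/NK-like levels behind those values all lie under the level of free RNA. In phagocyte-like cells the values without it were -0.34 (SE 0.36) and -0.77 (SE 0.38), beside 1.47% of genes, and in fibroblast-like cells -0.29 (SE 0.42) and -0.60 (SE 0.52), beside 0%, and none of these passed. Hspa1b in plasmacytoid dendritic-like cells passed at -3.02 (SE 0.87), beside 2.42%. With the replicate number as a block, 2 of 9 members passed in T/NK-like cells, Hspa1a at -3.36 and Hspa1b at -2.66, beside 15.4% of genes. The block also let Hspa1b pass in phagocyte-like (-1.60, beside 1.84%) and fibroblast-like cells (-1.57, beside 0.581%), and it passed in plasmacytoid dendritic-like cells at -4.58, beside 4.84%. The Hspa1a difference was larger in T/NK-like than in phagocyte-like cells by 2.12 (SE 0.39, log2), a term that passed for 0.816% of 11027 genes and, for Hspa1a, did not pass without WT replicate 1 or without either IL1α-/- library. Since the genes were picked knowing these levels, no count here is read as a result.

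**Figure D4:**
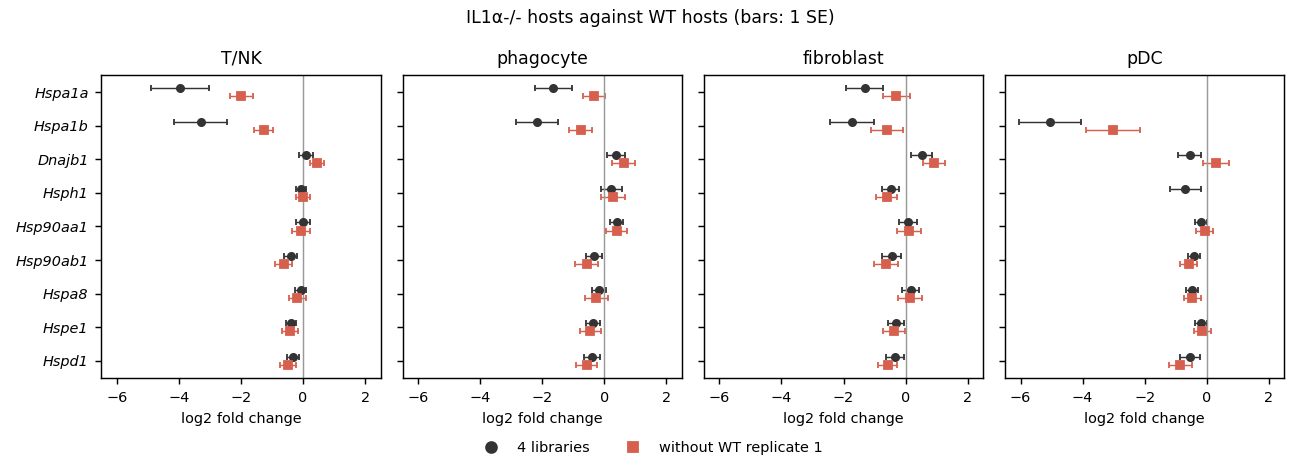
Log2 fold change of IL1α-/- against WT hosts for the 9 genes in 4 gates, with all 4 libraries (black) and without WT replicate 1 (red); bars are 1 SE. Without WT replicate 1 the Hspa1a difference in T/NK-like cells moves from -3.97 to -1.99, and in phagocyte-like cells from -1.64 to -0.34.

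Both WT libraries lay above both IL1α-/- libraries for 5 of 9 members in T/NK-like cells, beside 33.4% of genes. The count was 6 of 9 in phagocyte-like (27% of genes), 4 of 9 in fibroblast-like (19.8%) and 7 of 8 in plasmacytoid dendritic-like cells (23.6%). Several margins were small, as for Hspd1 in T/NK-like cells (183 against 175 CPM).

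Replicate 2 was compared with replicate 1, taken as the 2 collection days, in a model that also held the host. In T/NK-like cells the log2 difference was -2.33 (SE 0.33) for Hspa1a and -2.13 (SE 0.37) for Hspa1b, negative where replicate 2 is lower. In phagocyte-like cells the values were -1.26 (SE 0.41) and -1.71 (SE 0.33). In each gate 0 of 9 members passed, beside 0.0452% of 11059 and 0.139% of 8652 genes. That count turned with the settings. Hspa1a passed in T/NK-like cells with DESeq2 size factors (-2.34, adjusted p = 0.0404 in edgeR) and with thinned cells (-2.43, adjusted p = 0.0108). Both genes passed in phagocyte-like cells with the stricter gate, at -2.03 and -1.99. With no filter on low counts both genes passed in both gates. The pair term rests on the same WT replicate 1 and cannot be told apart from that library with 2 pairs.

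Between cell classes, where the gates used no member, Hspa1a was higher in phagocytes and fibroblasts than in T/NK-like cells of the same library, as was Hspa1b except in the fibroblasts of WT replicate 1. For phagocyte-like against T/NK-like cells, edgeR's quasi-likelihood test with the library as a block gave log2 differences of 2.18 (SE 0.36, adjusted p = 4.2e-04) for Hspa1a and 1.10 (SE 0.21, adjusted p = 0.00116) for Hspa1b. Dnajb1 was lower, by -0.65 (SE 0.14, adjusted p = 0.00185). These 3 of 9 passed, beside 60% of 11027 genes, so passing is common in this comparison. The ratio of phagocyte-like to T/NK-like cells was 2.12, 3.58, 8.41 and 14.2 for Hspa1a and 1.28, 2.04, 3.63 and 2.89 for Hspa1b across the 4 libraries. It was above 1 in 4 of 4 for both genes, and smallest in WT replicate 1. The T/NK-like levels in the other 3 libraries lie under the free RNA level, as given above. Without the library as a block the differences were 1.69 and 0.84, and neither passed (adjusted p = 0.153 and 0.470, edgeR).

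Fibroblast-like cells were higher than T/NK-like cells for Hspa1a by 2.04 (SE 0.41, adjusted p = 0.00136 in edgeR), for Hspa1b by 1.06 (SE 0.28, adjusted p = 0.0065) and for Dnajb1 by 0.45 (SE 0.15, adjusted p = 0.0214). They were lower for Hspd1 by -0.75 (SE 0.14, adjusted p = 9.3e-04) and for Hsph1 by -0.53 (SE 0.16, adjusted p = 0.0157). These were 5 of 9 members, beside 69.8% of 11974 genes. The Hspa1a ratio was 1.46, 3.31, 10.9 and 9.79 and the Hspa1b ratio 0.970, 2.04, 3.89 and 2.47, and the interval of the Hspa1b ratio in WT replicate 1 (0.865 to 1.09) included 1. Hsph1 did not pass without WT replicate 1 (adjusted p = 0.0627) or without IL1α-/- replicate 1 (adjusted p = 0.0697), and Dnajb1 not without either IL1α-/- library (adjusted p = 0.0575 and 0.0919, edgeR). Without the block neither Hspa1a (1.37, adjusted p = 0.228) nor Hspa1b (0.60, adjusted p = 0.587) passed.

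Plasmacytoid dendritic-like cells passed against T/NK-like cells with another set of members. Hspd1 was lower by -1.27 (SE 0.14, adjusted p = 2.7e-07 in edgeR), Hsph1 by -1.26 (SE 0.22, adjusted p = 8.2e-05) and Hspa8 by -0.58 (SE 0.11, adjusted p = 1.4e-04). Hspe1, the partner of Hspd1, was higher by 0.33 (SE 0.11, adjusted p = 0.0139), and did not pass without IL1α-/- replicate 1 (adjusted p = 0.0569). These 4 of 9 passed beside 52.1% of 10119 genes. The genes of the HSP60 and HSP10 chamber thus went in opposite directions between these gates. Hspa1a, Hspa1b and Dnajb1 did not pass in this fit. Hspa1b was higher and passed with thinned cells (0.68, adjusted p = 0.0373 in edgeR), with at least 1000 UMIs per cell and without either IL1α-/- library. Hspa1a and Dnajb1 passed without IL1α-/- replicate 2 (0.59 and 0.52). Ratios by library were 1.59, 0.993, 1.84 and 0 for Hspa1a and 1.53, 1.65, 0.728 and 0.285 for Hspa1b. Without WT replicate 1, 3 of 9 members passed for phagocytes (53.6% of genes), 4 of 9 for fibroblasts (62.7%) and 4 of 9 for this gate (43.1%).

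**Figure D5:**
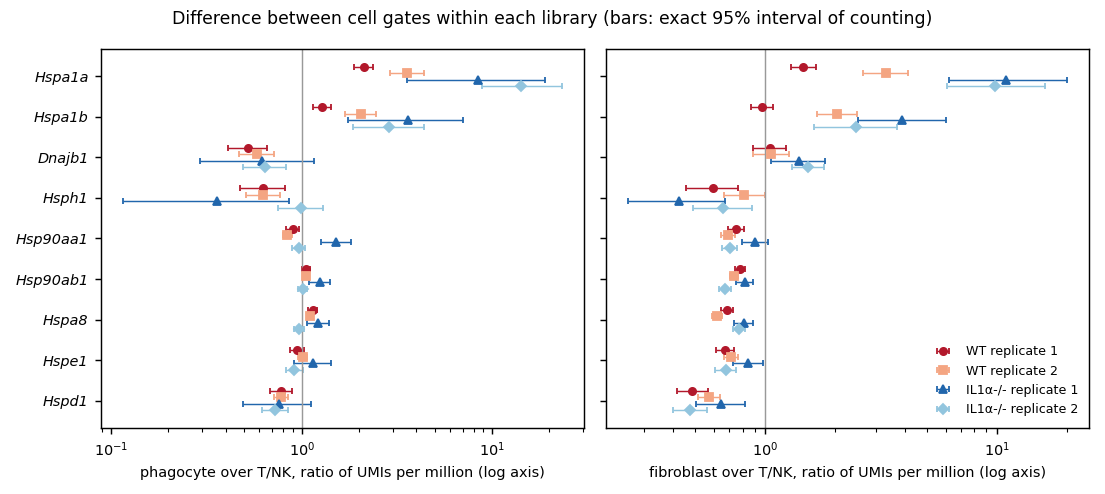
Ratio of CPM in phagocyte-like (left) and fibroblast-like cells (right) to T/NK-like cells of the same library, for the 9 genes on a log axis; points are libraries and bars exact 95% intervals of counting. For Hspa1a the phagocyte ratio runs from 2.12 in WT replicate 1 to 14.2 in IL1α-/- replicate 2, and for Dnajb1 from 0.524 to 0.643.

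The balance of the HSP70 pair was also set side by side between classes, a comparison chosen after the values were seen. The ratio of Hspa1a to Hspa1b UMIs was 0.599, 0.616, 0.395 and 0.371 in T/NK-like cells. It was 0.991, 1.08, 0.917 and 1.83 in phagocyte-like and 0.903, 1.00, 1.11 and 1.48 in fibroblast-like cells. Tumour epithelial-like cells had 0.453 and 0.280 in the WT libraries. In 3 of the 4 libraries the T/NK-like UMIs lie under the level of free RNA, as given above, so their balance there is not read as that of the cells, and no test is given.

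Other chaperone lists, which were drawn up with earlier results of these data known, were read in the host comparison of T/NK-like cells, beside a median of -0.02 and 4.9% passing over all genes. Of 27 other cytosolic heat shock and co-chaperone genes tested, 1 passed, Dnajb6, an HSP40 relative, higher by 0.69 (SE 0.15, adjusted p = 0.0481 in edgeR), and the median was -0.12. Ahsa1 (-0.43), which stimulates HSP90, and Stub1 (-0.27), a ubiquitin ligase of HSP70 clients, did not pass. The 7 TRiC subunits tested, parts of the chamber that folds actin and tubulin, were all lower in IL1α-/- hosts with a median of -0.41. Among them were Cct3 at -0.53 and Cct5 at -0.47, and 0 passed. With the replicate block 2 passed, where 15.4% of 11059 genes did. Among 8 mitochondrial chaperones and proteases, all were lower, with a median of -0.28. Htra2, a protease, passed at -1.03 (adjusted p = 0.0369), and it did not pass without WT replicate 1. Of 18 endoplasmic reticulum genes 1 passed, Dnajb9, an HSP40 of that compartment, at 1.14 (adjusted p = 0.0261), and the median was 0.09.

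Stress genes outside the chaperones had another order of libraries. Of 16 immediate early genes in T/NK-like cells 4 passed, beside 4.9% of 11059 genes. Fosb (1.26, adjusted p = 0.0285 in edgeR), Atf3 (1.02, adjusted p = 0.033) and Egr1 (0.95, adjusted p = 0.0368) were higher in IL1α-/- hosts, and Jun was lower (-1.17, adjusted p = 0.0313). The list summed to 5163, 3524, 5391 and 5705 CPM in T/NK-like cells, 7931, 6013, 12222 and 11903 CPM in phagocyte-like and 10837, 7726, 18146 and 18496 CPM in fibroblast-like cells. WT replicate 1, the highest library for Hspa1a and Hspa1b, was not the highest for this list in any of the 3. Of 6 oxidative and heavy-metal stress genes tested 3 passed, all higher: the metallothioneins Mt2 (2.81, adjusted p = 0.0115 in edgeR) and Mt1 (2.60, adjusted p = 0.0128) and the haem-degrading Hmox1 (1.61, adjusted p = 0.0479). Without WT replicate 1 the WT side held a single library, so no count of these lists is given for that fit. In phagocyte-like cells 14 of 16 immediate early genes were higher, with a median of 0.79 beside -0.03 over all genes. Fosb passed there (1.61, adjusted p = 0.0485 in edgeR), beside 0.254% of 8652 genes. The cold-inducible genes Rbm3 (0.13) and Cirbp (-0.11) did not pass in T/NK-like cells.

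Between classes, phagocyte-like cells exceeded T/NK-like cells for 14 of 18 endoplasmic reticulum genes, among them Pdia6 (1.49), Hsp90b1 (1.18) and Calr (1.10). They did so for 12 of 16 immediate early genes, among them Atf3 (4.81), Fos (3.05) and Zfp36 (3.18). Of all 11027 genes 60% passed in either direction, 29.1% higher and 31.0% lower. Of 27 other cytosolic genes 3 were higher and 10 lower, with Hsbp1, a negative regulator of HSF1, at 0.97 and Unc45a, an HSP90 partner, at -1.39. Bag3, an HSP70 exchange factor, was higher by 1.63 (adjusted p = 7.1e-05, edgeR), as the HSP70 pair was.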

How the data were processed

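Single-cell RNA libraries from 4 tumours, 2 per host genotype, were read. The authors deposited whole-number UMI counts per feature and barcode for each library, made with Cell Ranger 3.1.0 and mm10 per the submitters' processing notes, and per the labels the libraries were 10x 3′ libraries. The feature list held 31053 mouse and 33538 human features, and only the mouse features were used. The deposited matrices list 6794880 barcodes each, so cells were called here: at least 500 mouse UMIs, 250 genes and at most 20% mitochondrial UMIs. No doublet caller was run, and the alternative without the 2% of cells with the most UMIs stands in for one.

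Each cell joined the class, of 10 with 10 markers each, of which it had at least 3 markers and at least 2 times those of the next class. Other cells stayed ungated, at 544, 486, 705 and 407 in the 4 libraries. UMIs were summed per gate and library, and gates with at least 20 cells in each library were tested across all genes with edgeR 4.0.16 (filterByExpr, TMM, glmQLFTest, Benjamini-Hochberg, threshold 0.05) in R 4.3.3. Host fits had no block. Class fits had the library as a block. DESeq2 1.42.0 was an alternative. Conventional dendritic-like, neutrophil-like and tumour epithelial-like cells were too few to test. Levels are UMIs per 1000000 mouse UMIs (CPM) of a gate and library, and they compare libraries, not genes. Intervals are exact 95% intervals (Poisson, Clopper-Pearson or conditional binomial) on UMIs or cells and cover counting error only. Each library is 1 tumour, and p-values measure only the spread between these samples.

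The members and lists were chosen with earlier results of these data known. From each other list the 3 genes of smallest unadjusted p were named, and Egr1 was named after its value was seen. The labels say that the tumours came as pairs on separate days and do not tie replicate numbers to pairs; this was assumed. Same-numbered samples deviated from their group means with r = 0.234 over 11059 genes in T/NK-like and 0.0259 over 8652 in phagocyte-like cells. Tests were checked on simulated counts: at a log2 change of 1, 50.5% of 200 changed genes were recovered in the T/NK-like host comparison, and all 200 at a log2 change of 2. The simulation gave all genes the same spread between libraries and shifted no single library. It therefore does not cover Hspa1a and Hspa1b, which differed widely between the WT libraries. Other settings tried are given at the end. Figures were drawn with matplotlib 3.10.9.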

Additional observations from a re-analysis of the deposited data

Results flagged for a closer look

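The host difference of Hspa1a was not the same in phagocyte-like and T/NK-like cells: the log2 difference between IL1α-/- and WT hosts was 2.12 higher (SE 0.39) in phagocyte-like cells, at an adjusted p of 0.0117 in edgeR with the library as a block. The comparison was chosen after the values were seen. It was 1.65 without WT replicate 1 (adjusted p = 0.0888), 2.43 without WT replicate 2 (1.9e-05), 2.40 without IL1α-/- replicate 1 (0.116) and 1.42 without IL1α-/- replicate 2 (0.594). Hspa1b gave 0.93 (SE 0.35, adjusted p = 0.296). T/NK-like levels in 3 libraries lie below free RNA, and the part of free RNA was not tested.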

How the results depend on the processing

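Counts of genes past the threshold depended on the settings more than the member values did. With 542 genes in the T/NK-like host comparison, there were 1782 with no low-count filter, 855 with the stricter gate, 922 without the 2% of cells with the most UMIs and 340 with thinned cells. With 22 in phagocyte-like cells, there were 68 with DESeq2 size factors, 459 unfiltered, 98 with DESeq2, 8 with at least 1000 UMIs per cell, 57 with the stricter gate and 9 without the top 2%. With 0 in fibroblast-like cells, there were 72 unfiltered and 9 with DESeq2. With 116 in plasmacytoid dendritic-like cells, there were 207 unfiltered, 40 with DESeq2 and 10 thinned. The replicate block, pairing libraries by number, gave 1699, 159, 58 and 286 in these 4 gates. Leaving out 1 library gave 421 to 828, 1 to 258, 0 to 0 and 104 to 184. The cause was not tested.

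For the pair comparison, the 5 genes of T/NK-like cells became 9 with DESeq2 size factors, 264 unfiltered, 14 with DESeq2, and 0 without the host term, with at least 1000 UMIs, with at most 10% mitochondrial UMIs, with the stricter gate or without the top 2%. The 12 of phagocyte-like cells became 2, 87 and 0 with size factors, no filter and no host term, 1 with at least 1000 UMIs, 34 with the stricter gate, 0 without the top 2% and 4 thinned. For the classes, thinning gave 5215 (from 8355, fibroblasts) and 2907 (from 5277, plasmacytoid dendritic-like), and leaving out 1 library gave 4919 to 6526 for phagocytes, 7332 to 8170 for fibroblasts and 4157 to 5162 for plasmacytoid dendritic-like cells.

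The excess of Hspa1a and Hspa1b in WT replicate 1 over the next library moved in phagocyte-like cells to 6.11 with the stricter gate and 3.55 thinned, and in tumour epithelial-like cells to 1.55, 1.79 without the top 2% and 1.64 thinned, always above 1. Hspa1b in plasmacytoid dendritic-like cells did not pass with DESeq2 (-4.88, adjusted p = 0.0962). Directions reversed for differences that had not passed, not all of them small. In the T/NK-like host comparison Dnajb1 was at -0.028 thinned and -0.22 to 0.46 with 1 library left out, Hsph1 at -0.20 to 0.071 with 1 left out, Hsp90aa1 at 0.0040 with size factors, 0.0038 with DESeq2, 0.012 with at least 1000 UMIs and -0.37 to 0.29 with 1 left out, and Hspa8 at 5.5e-05 thinned and -0.19 to 0.040 with 1 left out. In phagocyte-like cells Hsph1 was at -0.011 without the top 2%, -0.27 thinned and -0.82 to 0.50 with 1 left out. With 1 library left out, Hsp90aa1 ran from -0.054 to 0.23 in fibroblast-like cells and Dnajb1 from -1.05 to 0.29 in plasmacytoid dendritic-like cells. In the pair comparison Hspe1 was at -0.0041 without the top 2% and -0.14 thinned, Hsph1 at -0.036 and Hsp90aa1 at -0.22 with the stricter gate. Between classes Hspe1 was at -0.052 (phagocytes, thinned), and in plasmacytoid dendritic-like cells Hsp90aa1 at 0.014 and Hsp90ab1 at 0.022 without the top 2%, Hsp90ab1 at 0.078 thinned, and Hspa1a at -0.12 to 0.63 with 1 left out. With 1 left out, the host-effect difference ran from -0.065 to 0.24 for Dnajb1 (phagocytes) and from -7.60 to 0.16 for Hspa1a (plasmacytoid dendritic-like, where IL1α-/- libraries hold 2 and 0 UMIs and the value depends on the prior count). Of the member differences over all settings, 841 kept direction and side of the threshold, 51 newly passed, 16 no longer passed and 26 reversed. Fits of conventional dendritic-like cells were not run. The shallowest library, IL1α-/- replicate 1, limits its phagocyte values to 117 cells.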

Other observations

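Outside cells the ratio of Hspa1a to Hspa1b UMIs was 0.664, 0.858, 1.31 and 0.55 in the 4 libraries. Of 3068 genes, those most like the mean of Hspa1a and Hspa1b over sums of a gate in a library were Csn3 (Pearson r 0.832), Tprgl (0.791), Rps25 (0.782), Cst3 (0.753) and Retnlg (0.752). Csn3, a milk protein gene, stood at 17.8, 7.92, 1.24 and 0 CPM in T/NK-like cells, and tumour epithelial-like cells numbered 325, 206, 24 and 2 in the same order. In plasmacytoid dendritic-like cells of WT replicate 1, 32 cells with a UMI of the pair held 3.85 times the Jun (2.41 to 6.11) of 136 cells with none.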
